A study of Mus musculus with 9 samples.

Results

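Cholesterol and fatty acids are both built from acetyl-CoA, and the genes of the 2 routes and of their shared control by SREBP (sterol regulatory element-binding protein) were followed here over 20 days of culture of mouse cardiomyocytes. The set was a list of 30 genes, namely 18 of the sterol branch, 6 listed as SREBP regulators and 6 of the fatty acid branch. The regulator list includes Stard4, which encodes a carrier of cholesterol. Each gene was represented by the probe set with the highest mean log2 signal over the arrays. This gave values for 29 of the 30 genes, among 18194 genes measured on the arrays. The other gene was Acat2, which encodes the cytosolic thiolase that makes acetoacetyl-CoA and has no value here because no probe set was named by its symbol alone.

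The study asked how mature cardiomyocytes made from pluripotent stem cells become in culture. RNA was taken at day 10, day 20 and day 30 of differentiation with selection, with 3 arrays at each day, written here by day and replicate number from d10r1 to d30r3. All 9 samples came from a single line, called synp, which was made from R1 mouse embryonic stem cells of 129X1 x 129S1 background. In it the promoter of Ncx1, the sodium-calcium exchanger gene listed on the arrays as Slc8a1, drives puromycin resistance. Every culture received the cytokines FGF10, bFGF, VEGF, BMP4 and Activin A, with puromycin from day 7 onwards. Cells that do not use the Ncx1 promoter lack the resistance gene's product, so the selection depends on that promoter's activity. The labels do not say whether the 3 arrays of a day were separate differentiations. The p-values therefore rest on the spread of these arrays alone, possibly technical spread, and the number of arrays limits the precision.

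Cells make cholesterol from acetyl-CoA through mevalonate, the isoprenoid diphosphates, squalene and lanosterol, and they make palmitate from the same starting molecule by carboxylation to malonyl-CoA and chain assembly on fatty acid synthase. Elongases and desaturases then act on the finished palmitate. When membranes of the endoplasmic reticulum are poor in sterol, the escort protein SCAP carries SREBP to the Golgi, where it is cleaved to an active transcription factor, and when sterol is plentiful the INSIG proteins hold it back. SREBP2, encoded by Srebf2, is best known for driving the sterol genes, and the SREBP1 forms, encoded by Srebf1, for driving the fatty acid genes.

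The label of the cells was checked against 12 cardiomyocyte markers. Myh7, a cardiac myosin heavy chain gene, lay between 13.25 and 14.16 on the log2 scale in all 9 arrays, Actc1, the cardiac actin gene, between 13.67 and 13.96, and Myl7, an atrial myosin light chain gene, between 13.52 and 14.08. The highest value on any array was 14.52 and the median gene lay at 6.63, so these 3 markers were near the top of the range at every day. Others of the 12 were not level. Tnni3, the troponin I gene of the mature heart, had log2 signals of 9.30, 10.67 and 10.25 at day 10, 12.22, 12.74 and 12.62 at day 20, and 13.04, 12.85 and 12.90 at day 30, and rose by 2.85 at day 30 (adjusted p = 0.00088) and by 2.45 at day 20 (adjusted p = 0.0034), each against day 10. Slc8a1, whose promoter drove the selection, had log2 signals of 9.20, 9.80 and 9.89 at day 10, 8.33, 7.94 and 8.24 at day 20, and 9.31, 7.65 and 8.54 at day 30. Its day 20 arrays lay below day 10 while day 30 overlapped it. Slc8a1 fell by 1.46 at day 20 (adjusted p = 0.041), a call lost without any of 7 arrays, all but d30r1 and d30r2 (highest adjusted p = 0.13), and differed by -1.13 at day 30 (adjusted p = 0.073, and -1.53 with adjusted p = 0.021 without d30r1). The second brightest probe set of Slc8a1 gave -0.98 at day 20 (adjusted p = 0.31). With the replicate number fitted as a block, the day 20 fall of Slc8a1 had an adjusted p of 0.058. The dimmer transcription factor gene Tbx5 lay between 5.74 and 7.70. Tnni3, Slc8a1 and Tbx5 were named after their values were seen. The part of these marker differences in the lipid results was not tested. Of the fibroblast and matrix markers 10 of 12 rose at day 30 against day 10, where 11.2% of all genes rose. Their median difference was 3.44. Array medians over all probe sets lay between 5.48 and 5.56. The 12 probe sets for poly-A spikes, which report control RNA mixed into each sample, averaged 5.23 in d10r2 and 5.04 in d10r3. The remaining 7 arrays ranged from 5.88 to 6.75. In bulk RNA of this kind, fewer cells of a type and less RNA per cell cannot be told apart.

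The sterol genes were lower at the later days, and their day 20 arrays were the lowest. Between day 30 and day 10, 16 of the 29 members fell and 0 rose in limma's test at an adjusted p under 0.05 over all genes. Of all genes, 9.92% fell and 11.2% rose in that comparison. At an unadjusted p under 0.05 there were 22 members, where 34.2% of all genes were, and among the 22 Srebf1 and Insig2 alone were higher at day 30. The falls were 11 of 17 sterol genes, 2 of the 6 genes listed as regulators (Srebf2 and the carrier gene Stard4) and 3 of 6 fatty acid genes (Acly, Fasn and Elovl6). The median log2 difference was -1.04 in the sterol branch, -0.57 in the fatty acid branch and -0.0005 among the regulators, beside -0.03 over all genes. The count rested in part on single day 30 arrays: 7 members passed without d30r1 and 10 without d30r2.

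Between day 20 and day 10, 19 of the 29 members fell and 0 rose, where 6.69% of all genes fell and 7.3% rose. These were 13 of 17 sterol genes, 2 regulators (Srebf2 and Scap) and 4 fatty acid genes (Acly, Acaca, Fasn and Elovl6). The median log2 difference was -1.58 in the sterol branch, -1.13 in the fatty acid branch and -0.76 among the regulators, beside -0.03 over all genes. The comparison shares its day 10 arrays with the one above, so the counts of both comparisons are not independent of each other. In 20 of the 29 members the day 20 mean was at least 2-fold below the day 10 mean, against 3.13% of all genes, and in 11 members the day 30 mean was, against 3.98%. The day 20 arrays lay wholly below the day 10 arrays in 22 of the 29 members, against 17.3% of all genes. The day 30 arrays did so in 19 members, against 18.8% of all genes, so such a gap in a single gene is not rare here.

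**Figure D1:**
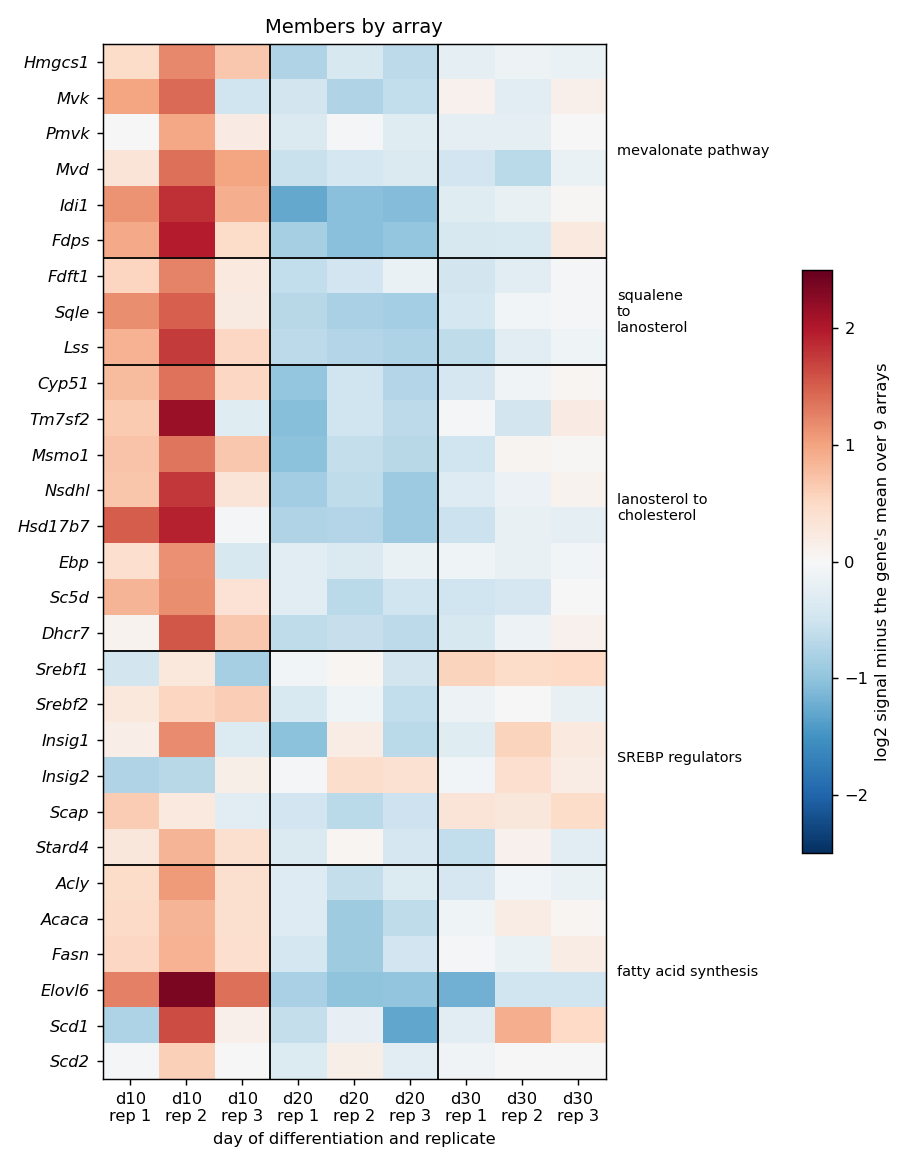
Log2 signal of the 29 members (rows, grouped by role) in the 9 arrays (columns, 3 replicates at day 10, 20 and 30), each gene centred on its own mean over the 9 arrays; red is above that mean and blue below it. Day 10 replicate 2 is the highest day 10 array in all 17 sterol rows, the day 20 columns are mostly blue, and the day 30 columns lie between them in most sterol rows.

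Because most of these genes were lower together, the stretches around their start sites are shown for 6 members whose expression is described below. The windows hold 250 bases before and 50 after the start of the gene and come from RefSeq (GRCm38.p6). The arrays give no genome build, so these coordinates belong to RefSeq alone. A window was at hand for 24 of the 30 listed genes, Acat2 included, and 5 of the 24 had several. Capitals mark matches on either strand to TCACNCCA, a core form of the sterol response element that SREBP binds, and to CCAAT, the box bound by the factor NF-Y, which reads ATTGG on the other strand. Hmgcs1 (chr13:119690101-119690400, + strand), Msmo1 (chr8:64733529-64733828, - strand) and Srebf2 (chr15:82147019-82147318, + strand) are shown because they alone among the 24 held the sterol response element core. Idi1 (chr13:8885356-8885655, + strand), Fasn (chr11:120824498-120824797, - strand) and Elovl6 (chr3:129532136-129532435, + strand) are shown because of their large or branch-defining differences.
Hmgcs1: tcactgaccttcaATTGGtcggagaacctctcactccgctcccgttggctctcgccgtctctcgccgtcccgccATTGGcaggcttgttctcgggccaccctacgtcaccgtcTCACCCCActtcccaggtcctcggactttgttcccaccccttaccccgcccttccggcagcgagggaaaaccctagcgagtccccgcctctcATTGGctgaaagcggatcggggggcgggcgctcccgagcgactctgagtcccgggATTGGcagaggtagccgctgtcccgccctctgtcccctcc
Msmo1: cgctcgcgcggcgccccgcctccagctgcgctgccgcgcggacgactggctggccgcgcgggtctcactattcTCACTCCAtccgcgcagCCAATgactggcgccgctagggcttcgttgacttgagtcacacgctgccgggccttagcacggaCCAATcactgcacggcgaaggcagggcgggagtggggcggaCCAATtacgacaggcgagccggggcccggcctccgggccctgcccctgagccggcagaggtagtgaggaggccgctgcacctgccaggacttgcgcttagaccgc
Srebf2: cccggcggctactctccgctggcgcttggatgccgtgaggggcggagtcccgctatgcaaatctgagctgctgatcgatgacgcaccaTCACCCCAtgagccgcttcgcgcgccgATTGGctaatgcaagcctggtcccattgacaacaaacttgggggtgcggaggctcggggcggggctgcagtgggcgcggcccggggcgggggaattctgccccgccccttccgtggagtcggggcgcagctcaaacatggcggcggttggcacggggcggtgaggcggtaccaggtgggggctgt
Idi1: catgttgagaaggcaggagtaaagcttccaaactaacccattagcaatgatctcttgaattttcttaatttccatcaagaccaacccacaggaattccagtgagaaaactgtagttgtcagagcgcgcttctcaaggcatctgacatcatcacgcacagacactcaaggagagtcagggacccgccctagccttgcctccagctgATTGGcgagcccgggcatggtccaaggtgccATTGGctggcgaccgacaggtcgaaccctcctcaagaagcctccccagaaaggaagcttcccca
Fasn: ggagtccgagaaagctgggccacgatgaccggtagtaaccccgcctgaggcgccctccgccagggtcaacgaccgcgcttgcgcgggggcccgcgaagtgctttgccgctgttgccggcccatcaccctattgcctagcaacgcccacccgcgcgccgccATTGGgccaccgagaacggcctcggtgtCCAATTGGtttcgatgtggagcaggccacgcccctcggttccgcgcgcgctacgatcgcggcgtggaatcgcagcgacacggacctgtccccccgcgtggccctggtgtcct
Elovl6: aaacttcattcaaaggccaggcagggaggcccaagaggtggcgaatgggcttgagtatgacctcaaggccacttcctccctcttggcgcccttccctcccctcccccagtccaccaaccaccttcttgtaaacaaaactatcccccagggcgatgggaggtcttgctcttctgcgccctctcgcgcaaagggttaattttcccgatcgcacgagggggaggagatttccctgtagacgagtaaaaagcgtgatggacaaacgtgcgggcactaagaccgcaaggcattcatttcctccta
The sterol response element core began 137 bases before the start in Hmgcs1, 177 in Msmo1 and 162 in Srebf2. It was found in 3 of 24 members' windows (12.5%), against 4.97% of the 27025 genes with a window. CCAAT was found in 20 of 24 (83.3%), against 41.1% of all genes. By branch it was in 14 of 15 sterol genes (93.3%), 4 of 5 regulators and 2 of 4 fatty acid genes. The GC box GGGCGG, bound by SP1, was also in 20 of 24 members (83.3%), against 38.2% of all genes. The E-box CACGTG was in 5 of 24 (20.8%), against 8.09%. In the 6 windows shown, no 2 matches to these 4 motifs shared letters, except that the Fasn window holds a CCAAT match on each strand that share letters (CCAATTGG). The Elovl6 window held none of the 4 motifs. These matches describe the letters of the windows and do not show that a factor was bound there.

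The first enzymes of the sterol branch make the isoprenoid units. Hmgcs1, the cytosolic synthase that makes HMG-CoA, had log2 signals of 12.42, 13.15 and 12.62 at day 10, 11.21, 11.55 and 11.31 at day 20, and 11.74, 11.84 and 11.79 at day 30. No array of a later day reached any day 10 array, and the day 30 arrays all lay above the day 20 arrays. The gene fell by 0.94 at day 30 against day 10 (SE 0.18, adjusted p = 0.0094) and by 1.37 at day 20 against day 10 (SE 0.18, adjusted p = 0.0039). Its window above holds the sterol response element core and 4 CCAAT matches.

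Mvd, which decarboxylates mevalonate diphosphate, had log2 signals of 8.59, 9.66 and 9.27 at day 10, 7.72, 7.84 and 7.92 at day 20, and 7.81, 7.60 and 8.11 at day 30. The day 20 and day 30 arrays overlapped each other and lay wholly below day 10. It fell by 1.34 at day 30 (adjusted p = 0.0083) and by 1.35 at day 20 (adjusted p = 0.014), each against day 10. The second of these missed the threshold without d20r2 (adjusted p = 0.05).

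Idi1, the isomerase that interconverts the 5-carbon isoprenoid diphosphates, was the sterol gene with the lowest adjusted p in both comparisons with day 10. Its log2 signals were 11.00, 11.71 and 10.78 at day 10, 8.60, 8.84 and 8.79 at day 20, and 9.58, 9.68 and 9.90 at day 30. The 3 days did not overlap, with day 20 lowest and day 30 between. The day 20 mean was 5.34-fold below day 10 (log2 difference -2.42, 95% interval -2.93 to -1.91, adjusted p = 0.00086). The day 30 mean was 2.71-fold below day 10 (-1.44, interval -1.95 to -0.93, adjusted p = 0.0036).

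Fdps, the farnesyl diphosphate synthase, had log2 signals of 11.02, 12.03 and 10.52 at day 10, 9.23, 9.03 and 9.11 at day 20, and 9.66, 9.68 and 10.32 at day 30. The days again did not overlap, though d30r3 came close to d10r3. It fell by 2.07 at day 20 (SE 0.36, adjusted p = 0.0095) and by 1.30 at day 30 (SE 0.36, adjusted p = 0.035), each against day 10. The day 30 fall missed the threshold without any of 6 arrays (d10r1, each day 20 array, and d30r1 and d30r2; highest adjusted p = 0.11). A second probe set of Fdps, at 3.16 to 3.22 on each day's mean, close to the bottom of the range, showed differences of -0.01 at day 30 and 0.05 at day 20.

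The kinases of the pathway did not pass the test. Mvk, mevalonate kinase, differed by -0.65 at day 30 (adjusted p = 0.33) and by -1.24 at day 20 (adjusted p = 0.093), and its day 10 arrays ran from 6.48 in replicate 3 to 8.41 in replicate 2. Without d10r3 these values were -1.22 (adjusted p = 0.003) and -1.81 (adjusted p = 0.001). Pmvk, phosphomevalonate kinase, differed by -0.55 (adjusted p = 0.13) and -0.62 (adjusted p = 0.11), with all later arrays below all day 10 arrays.

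Squalene is the first molecule committed to sterols, and the 3 measured enzymes that make it and close its rings all fell in both comparisons with day 10. Fdft1, squalene synthase, had log2 signals of 10.76, 11.46 and 10.46 at day 10, 9.60, 9.74 and 10.04 at day 20, and 9.75, 9.95 and 10.16 at day 30. All later arrays lay below day 10, and the later days overlapped each other. Its differences were -0.94 at day 30 (adjusted p = 0.032) and -1.10 at day 20 (adjusted p = 0.026). The day 30 call was lost without any of 6 arrays (d10r1 and d10r2, d20r2 and each day 30 array; highest adjusted p = 0.1) and the day 20 call without d10r1, d20r1 or d20r2 (highest adjusted p = 0.086).

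Sqle, squalene epoxidase, is a slow oxygen-using step of the route. Its log2 signals were 10.95, 11.29 and 10.01 at day 10, 9.10, 8.99 and 8.95 at day 20, and 9.36, 9.72 and 9.77 at day 30. The 3 days did not overlap. Sqle was 3.34-fold lower at day 20 (-1.74, adjusted p = 0.0087) and 2.2-fold lower at day 30 (-1.14, adjusted p = 0.028) than at day 10. The day 30 call was lost without d10r1, d10r2 or any day 30 array (highest adjusted p = 0.093).

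Lss, lanosterol synthase, had log2 signals of 9.17, 10.05 and 8.82 at day 10, 7.65, 7.57 and 7.52 at day 20, and 7.67, 8.04 and 8.19 at day 30. Here too the days did not overlap, but d30r1 and d20r1 were nearly equal. Its differences from day 10 were -1.38 at day 30 (adjusted p = 0.012) and -1.77 at day 20 (adjusted p = 0.0077), and both passed whichever single array was left out.

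Of the 8 enzymes that turn lanosterol into cholesterol, 4 fell at day 30 and 6 at day 20, each against day 10. Cyp51, the lanosterol demethylase, had log2 signals of 10.42, 10.99 and 10.15 at day 10, 8.68, 9.14 and 8.90 at day 20, and 9.22, 9.54 and 9.67 at day 30, with no overlap between days. It fell by 1.04 at day 30 (adjusted p = 0.015, and -0.91 with adjusted p = 0.054 without d30r1) and by 1.61 at day 20 (adjusted p = 0.0048). The second brightest probe set of Cyp51 gave -0.93 at day 30 (adjusted p = 0.11). Msmo1, the methylsterol monooxygenase that acts soon after, had log2 signals of 11.76, 12.39 and 11.72 at day 10, 10.02, 10.45 and 10.35 at day 20, and 10.56, 11.11 and 11.08 at day 30. Its days were likewise separate. It fell by 1.04 at day 30 (SE 0.23, adjusted p = 0.015) and by 1.68 at day 20 (SE 0.23, adjusted p = 0.0041).

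Nsdhl encodes the dehydrogenase that works beside Msmo1 on the same methyl groups. Its log2 signals were 10.23, 11.29 and 9.85 at day 10, 8.67, 8.90 and 8.63 at day 20, and 9.22, 9.37 and 9.62 at day 30. Although the days did not overlap, only the day 20 fall passed (-1.73, adjusted p = 0.013). The day 30 difference was -1.05 (adjusted p = 0.053), and it passed without d10r2 (-0.64, adjusted p = 0.049) or d10r3 (-1.36, adjusted p = 0.012).

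Hsd17b7, the ketosteroid reductase of the same complex, had log2 signals of 9.17, 9.60 and 7.61 at day 10, 6.91, 6.92 and 6.75 at day 20, and 7.12, 7.47 and 7.43 at day 30. Day 10 replicate 3 was far below the other day 10 arrays, yet still above every later array. The differences were -1.45 at day 30 (SE 0.44, adjusted p = 0.048) and -1.93 at day 20 (SE 0.44, adjusted p = 0.025). The first was lost without any array but d10r3 (highest adjusted p = 0.14), and the second without d10r1, d10r2 or any day 20 array (highest adjusted p = 0.078). The second brightest probe set of Hsd17b7 gave -1.12 at day 30 (adjusted p = 0.055).

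Sc5d, a sterol desaturase, had log2 signals of 10.00, 10.31 and 9.50 at day 10, 8.85, 8.47 and 8.65 at day 20, and 8.65, 8.73 and 9.13 at day 30. The later days overlapped each other and lay below day 10. Sc5d fell by 1.10 at day 30 (adjusted p = 0.01) and by 1.28 at day 20 (adjusted p = 0.0095), against -0.45 (adjusted p = 0.19) and -0.52 (adjusted p = 0.15) for its second brightest probe set. Dhcr7, the reductase of the last step of the route, had log2 signals of 8.93, 10.39 and 9.51 at day 10, 8.20, 8.25 and 8.19 at day 20, and 8.43, 8.71 and 8.94 at day 30. Day 30 replicate 3 lay just above d10r1, so those days overlapped, while day 20 lay below both. The day 20 fall was 1.40 (adjusted p = 0.027, lost without any single day 20 array, highest adjusted p = 0.08) and the day 30 difference -0.92 (adjusted p = 0.080, and -1.26 with adjusted p = 0.017 without d10r1).

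The remaining enzymes of this stretch did not pass in either comparison. Tm7sf2, a sterol reductase, differed by -0.93 at day 30 (adjusted p = 0.27) and by -1.58 at day 20 (adjusted p = 0.091), with day 10 arrays spread from 6.96 to 9.43. Ebp, the sterol isomerase, differed by -0.50 (adjusted p = 0.31) and -0.65 (adjusted p = 0.22), and its days overlapped. Both passed in both comparisons without d10r3, where Tm7sf2 differed by -1.51 at day 30 and -2.15 at day 20 (adjusted p = 0.034 and 0.0098) and Ebp by -0.89 and -1.04 (adjusted p = 0.013 and 0.0084).

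**Figure D2:**
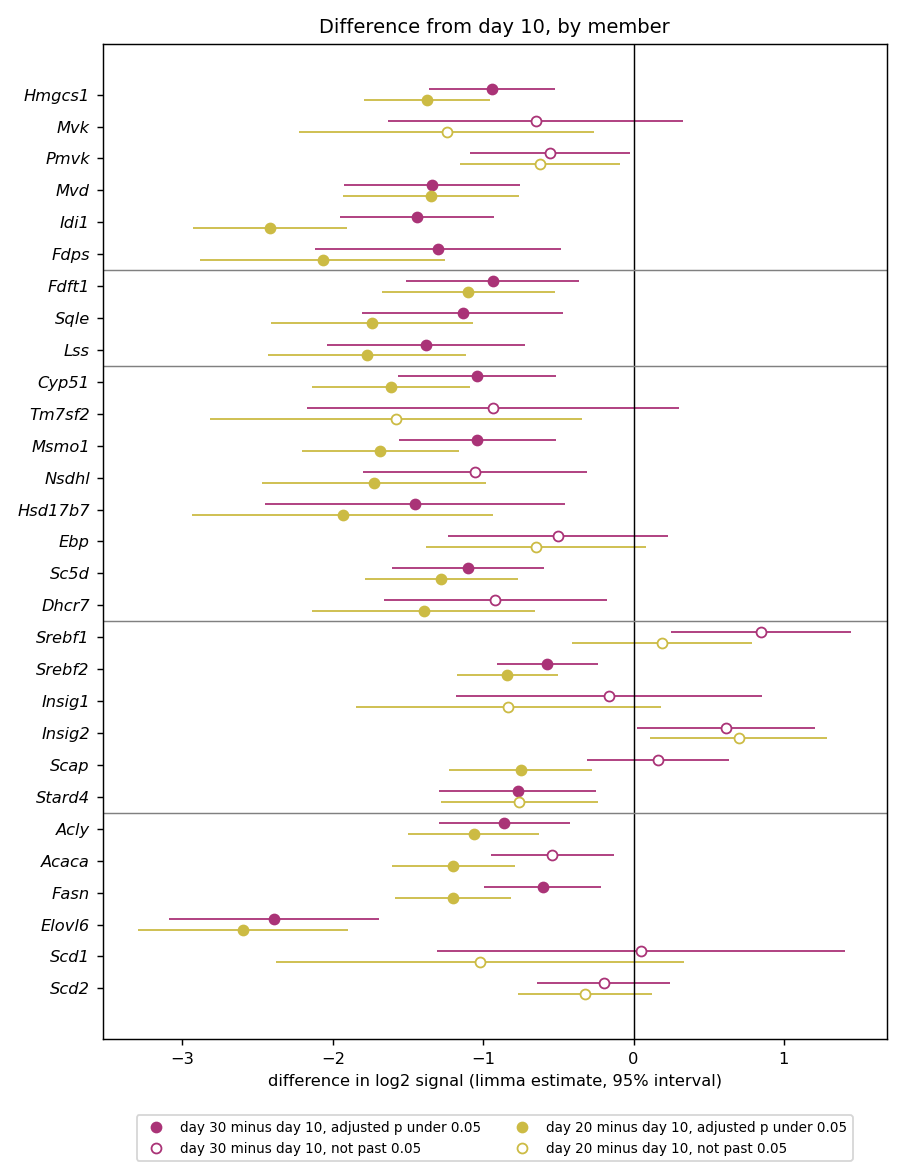
Difference in log2 signal from day 10 for each of the 29 members (rows, grouped by role), at day 30 (purple) and day 20 (yellow), with 95% intervals from the limma fit of all 9 arrays; filled points passed an adjusted p under 0.05. All 17 sterol genes lie left of 0 at both days, Srebf1 and Insig2 lie right of it at both, and the lowest points belong to Elovl6.

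The regulators differed among themselves in sign. Srebf2, the SREBP2 gene, had log2 signals of 9.60, 9.87 and 9.95 at day 10, 8.96, 9.23 and 8.73 at day 20, and 9.21, 9.34 and 9.16 at day 30. Both later days lay below day 10. Srebf2 fell by 0.84 at day 20 (SE 0.15, adjusted p = 0.0099) and by 0.57 at day 30 (SE 0.15, adjusted p = 0.027). The day 30 call was lost without d10r2, d10r3 or any day 30 array (highest adjusted p = 0.086), though every such value lay between -0.68 and -0.50. The second brightest probe set of Srebf2 gave -0.90 at day 20 (adjusted p = 0.067).

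Srebf1, which encodes SREBP1, was the 1 member whose day 30 arrays all lay above its day 10 arrays, as in 17.4% of all genes. Its log2 signals were 9.36, 10.09 and 8.99 at day 10, 9.77, 9.88 and 9.36 at day 20, and 10.38, 10.28 and 10.33 at day 30. Day 20 overlapped day 10. The day 30 difference of 0.85 (95% interval 0.25 to 1.45) had an adjusted p of 0.052, and without d10r2 it was 1.15 (adjusted p = 0.0073). At day 20 Srebf1 differed by 0.19 from day 10 (adjusted p = 0.69), and by -0.06 without d10r3. The probe set is annotated only to Srebf1, so the SREBP1a and SREBP1c transcripts were not told apart.

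The INSIG genes, whose products retain the SCAP-SREBP complex, had opposite signs with neither past the threshold. Insig1 had log2 signals of 9.98, 10.99 and 9.47 at day 10, 8.79, 10.01 and 9.15 at day 20, and 9.52, 10.38 and 10.05 at day 30. Replicate 2 was the highest array of each day, and the 3 days overlapped. Its difference from day 10 was -0.16 at day 30 (95% interval -1.18 to 0.85, adjusted p = 0.84) and -0.83 at day 20 (adjusted p = 0.26), and the first was 0.26 without d10r2 and 0.07 without d30r1. Insig2 had log2 signals of 8.65, 8.72 and 9.55 at day 10, 9.38, 9.85 and 9.79 at day 20, and 9.34, 9.83 and 9.60 at day 30. Day 10 replicate 3 lay among the later arrays and the other day 10 arrays below all of them. Insig2 differed from day 10 by 0.62 at day 30 (adjusted p = 0.13) and 0.70 at day 20 (adjusted p = 0.11), and without d10r3 by 0.90 and 0.99 (adjusted p = 0.010 and 0.0085).

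Scap, the escort gene, had log2 signals of 8.94, 8.56 and 8.02 at day 10, 7.83, 7.64 and 7.80 at day 20, and 8.64, 8.60 and 8.77 at day 30. Day 20 lay below both other days, and day 30 lay within the day 10 range. Scap fell by 0.75 at day 20 against day 10 (adjusted p = 0.047), a call lost without any array but d10r3 (highest adjusted p = 0.15). At day 30 it differed by 0.16 (adjusted p = 0.64), and by -0.08 without d10r3.

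Stard4, a carrier of cholesterol between membranes, had log2 signals of 8.94, 9.52 and 9.06 at day 10, 8.30, 8.71 and 8.24 at day 20, and 8.04, 8.77 and 8.40 at day 30. Both later days lay below day 10 and overlapped each other. It fell by 0.77 at day 30 (adjusted p = 0.046) and differed by -0.76 at day 20 (adjusted p = 0.062). The day 30 call was lost without any of 7 arrays, all but d20r2 and d30r2 (highest adjusted p = 0.14). The second brightest probe set of Stard4 gave -1.40 at day 30 and -1.31 at day 20, both past the threshold.

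**Figure D3:**
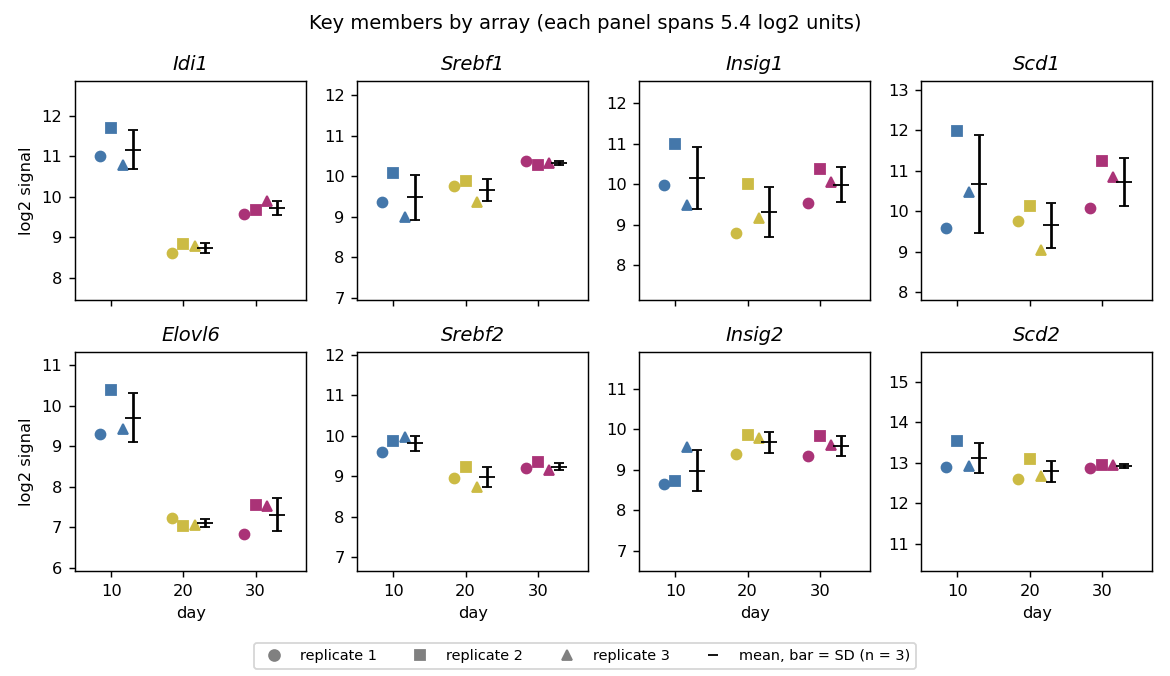
Log2 signal of 8 members by day (horizontal axis) in each array, with symbols for the replicate and the mean and SD beside them (n = 3 per day); every panel spans the same number of log2 units but starts at its own level. Idi1 and Elovl6 separate day 10 from the later days, Srebf1 is highest at day 30, and the day 10 arrays of Insig1 and Scd1 spread widely and overlap both later days.

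In the fatty acid branch Acly, Fasn and Elovl6 fell at both later days against day 10 and Acaca at day 20, while the desaturases Scd1 and Scd2 passed at neither day. Acly, ATP citrate lyase, makes cytosolic acetyl-CoA for both branches. Its log2 signals were 11.36, 11.98 and 11.31 at day 10, 10.58, 10.31 and 10.57 at day 20, and 10.50, 10.84 and 10.74 at day 30. Both later days lay below day 10 and overlapped each other. Acly fell by 0.86 at day 30 (adjusted p = 0.016, and -0.76 with adjusted p = 0.057 without d30r1) and by 1.06 at day 20 (adjusted p = 0.011).

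Acaca, the acetyl-CoA carboxylase that commits carbon to fatty acids, had log2 signals of 8.99, 9.37 and 8.90 at day 10, 8.19, 7.62 and 7.87 at day 20, and 8.40, 8.70 and 8.56 at day 30. The days did not overlap. It fell by 1.20 at day 20 (SE 0.18, adjusted p = 0.0056) and differed by -0.54 at day 30 (SE 0.18, adjusted p = 0.066), or -0.63 without d10r3 (adjusted p = 0.046). Fasn, the fatty acid synthase, had log2 signals of 10.42, 10.77 and 10.33 at day 10, 9.46, 9.02 and 9.43 at day 20, and 9.86, 9.74 and 10.10 at day 30. The days were again separate, with day 20 lowest. Fasn fell by 1.20 at day 20 (adjusted p = 0.0048) and by 0.60 at day 30 (adjusted p = 0.037), the second lost without any of 5 arrays (d10r1 and d10r2, d20r3, d30r1 and d30r2; highest adjusted p = 0.12).

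Elovl6, the elongase that extends palmitate to stearate, had the most negative differences of all members. Its log2 signals were 9.29, 10.40 and 9.42 at day 10, 7.22, 7.03 and 7.06 at day 20, and 6.84, 7.55 and 7.53 at day 30. The later days overlapped each other and lay far below day 10. Its mean was 5.25-fold lower at day 30 (-2.39, 95% interval -3.09 to -1.70, adjusted p = 0.0016) and 6.05-fold lower at day 20 (-2.60, interval -3.29 to -1.90, adjusted p = 0.0024) than at day 10. Both calls held whichever single array was left out, with adjusted p up to 0.0065 at day 30 and 0.013 at day 20.

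Scd1 and Scd2 encode stearoyl-CoA desaturases, which place the double bond that makes oleate. Scd1 had log2 signals of 9.58, 11.97 and 10.46 at day 10, 9.76, 10.13 and 9.05 at day 20, and 10.08, 11.25 and 10.83 at day 30. The day 10 arrays alone spanned more than the later days together, and all days overlapped. It differed by 0.05 at day 30 (95% interval -1.31 to 1.41, adjusted p = 0.97) and by -1.02 at day 20 (adjusted p = 0.29), and the day 30 interval takes in differences as large as those of most sterol genes. The day 30 value was -0.50, -0.05, -0.21 and -0.01 without d10r1, d10r3, d30r2 and d30r3. Scd2 had log2 signals of 12.89, 13.54 and 12.93 at day 10, 12.61, 13.10 and 12.68 at day 20, and 12.87, 12.95 and 12.94 at day 30. It differed by -0.20 at day 30 (interval -0.64 to 0.25, adjusted p = 0.53) and by -0.32 at day 20 (adjusted p = 0.31), and by 0.01 at day 30 without d10r2. All its days overlapped. The other probe sets of Scd2 differed by -0.55 and -1.21 at day 30 and by -0.68 and -1.10 at day 20. With array weights both genes passed at day 20, Scd1 at -1.95 (adjusted p = 0.024) and Scd2 at -0.60 (adjusted p = 0.03).

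The sterol and fatty acid branches were set beside each other array by array, as the mean of each branch's genes after centring every gene on its own mean. The sterol branch lay at 0.71, 1.51 and 0.32 in the day 10 arrays, -0.71, -0.61 and -0.65 at day 20, and -0.35, -0.24 and 0.00 at day 30. The fatty acid branch lay at 0.31, 1.23 and 0.45 at day 10, -0.47, -0.57 and -0.67 at day 20, and -0.35, 0.06 and 0.01 at day 30. Both branches were highest in d10r2, and in both every later array lay below every day 10 array. The sterol level minus the fatty acid level was 0.40, 0.28 and -0.13 at day 10, -0.24, -0.03 and 0.02 at day 20, and 0.01, -0.30 and -0.01 at day 30. These differences overlapped between all days, so at this size of study the branches were not separated by day. Within the fatty acid branch, Elovl6 had more negative differences from day 10 than any sterol gene.

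Every sterol gene had its lowest mean at day 20 in the probe set used. The day 30 mean was above the day 20 mean in all 17 sterol genes, all 6 fatty acid genes and 27 of 29 members, against 51.1% of all genes. The exceptions were Insig2 and Stard4, which differed by -0.08 and -0.01. Most unused probe sets of the members also had the higher mean at day 30. The sign was the other way in an unused probe set of Mvd (-0.06), Srebf2 (-0.05) and Scd2 (-0.11). It was so too in dimmer probe sets of Fdps, Lss, Sc5d, Acly and Elovl6. In 16 members the day 30 arrays lay wholly above the day 20 arrays, against 11.7% of all genes. These were 12 sterol genes, Srebf1, Scap, Acaca and Fasn. The median difference was 0.48 in the sterol branch and 0.40 in the fatty acid branch, beside 0.00 over all genes.

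No member passed the test between day 30 and day 20 in limma's fit, where 0.335% of all genes did, 0.291% higher and 0.044% lower. At an unadjusted p under 0.05 there were 8 of the 29, against 10.8% of all genes. The lowest adjusted p was 0.15, for Idi1 (0.98, 95% interval 0.47 to 1.49) and Scap (0.91, interval 0.44 to 1.39). Without d10r3, 1 member passed. The fit took 1 spread per gene for all days, so scatter among day 10 arrays also entered this test. That scatter was wide in the sterol genes (median SD 0.63, against 0.14 for day 20 and 0.23 for day 30). For Idi1 the SE was 0.22 here and in both comparisons with day 10. The lack of calls therefore does not show that the later days were level. The count from a fit of only those days is given in the last section. The order of the day means, day 20 under day 30 under day 10, held in 17 of 17 sterol genes, 5 of 6 fatty acid genes and 24 of 29 members, against 19.8% of all genes.

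Whether the later interval differed from the earlier one was tested directly, as the day 30 minus day 20 difference less the day 20 minus day 10 difference. A gene that fell by day 20 and then stayed level also gives a positive value. Mvd, for example, gave 1.35 with a day 30 minus day 20 difference of 0.0074. The test therefore does not show a rise after day 20. Idi1 was the 1 member that passed (3.40, adjusted p = 0.016), where 0.478% of all genes did. At an unadjusted p under 0.05 there were 21 of the 29, against 15.5% of all genes. For Idi1 the call was lost without any single day 20 array (highest adjusted p = 0.091). Next by adjusted p came Fasn (1.80, adjusted p = 0.051), Acaca (1.86, adjusted p = 0.052), Msmo1 (2.33, adjusted p = 0.054) and Hmgcs1 (1.81, adjusted p = 0.059), none past the threshold. Leaving out d10r1, 2 or 3 gave 2, 4 and 18 passing members, and leaving out any day 20 array gave 0.

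**Figure D4:**
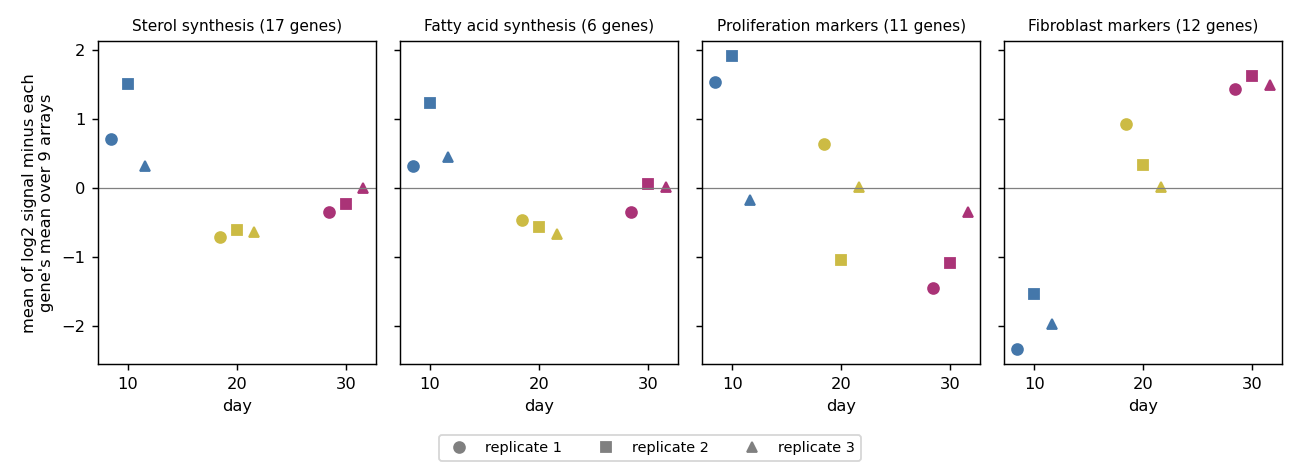
Mean log2 signal, each gene centred on its mean over the 9 arrays, of 17 sterol genes, 6 fatty acid genes, 11 proliferation markers and 12 fibroblast and matrix markers in each array, by day (horizontal axis), with symbols for the replicate. Day 10 replicate 2 is the highest array in the first 3 panels, the day 20 arrays are lowest in both synthesis branches, and the fibroblast markers are higher at each later day.

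The day 10 arrays differed among themselves more in these genes than in most. For the sterol genes the median within-day SD was 0.63 among day 10 arrays, 0.14 among day 20 arrays and 0.23 among day 30 arrays, beside 0.19, 0.13 and 0.14 over all genes. For the fatty acid genes it was 0.37, 0.25 and 0.18. Within day 10, replicate 2 was the highest array in 17 of 17 sterol genes and 6 of 6 fatty acid genes, against 29.4% of all genes. Replicate 3 was the lowest in 13 of 17 sterol genes. Within day 30, replicate 3 was the highest in 14 of 17 sterol genes, against 33.8% of all genes.

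Proliferation markers moved with some of these arrays. Of the 11 measured, 5 fell at day 30 and 1 at day 20, each against day 10. Of all genes, 9.92% fell at day 30 and 6.69% at day 20. Their centred mean was 1.54, 1.92 and -0.17 in the day 10 arrays, 0.64, -1.05 and 0.02 at day 20, and -1.45, -1.09 and -0.35 at day 30. Day 10 replicate 2 was thus the highest array for these markers as for both synthesis branches, while d10r3, at the level of the later arrays for the markers, stayed above all later arrays for the branches. The poly-A spikes were low in both of these arrays. The part of proliferating cells in the lipid results was not tested.

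Markers of other cell types were read as well, since fibroblasts, adipocytes and hepatocytes also make lipid. The fibroblast and matrix markers had a centred mean of -2.34, -1.54 and -1.97 at day 10, 0.93, 0.34 and 0.02 at day 20, and 1.44, 1.63 and 1.50 at day 30, and their part in the lipid results was not tested. Of 7 measured adipocyte markers, 3 rose at day 30 against day 10, namely Fabp4 (4.02, adjusted p = 0.0024), Plin4 (2.86, adjusted p = 0.00028) and Pparg (0.51, adjusted p = 0.019). Pparg lay between 4.05 and 4.80 in all 9 arrays, below the median gene at 6.63. Retn, a brighter marker of this list than Pparg, differed by -0.19 at day 30 (adjusted p = 0.37). Adipoq, the defining adipocyte hormone gene, stayed between 3.33 and 3.81 in all 9 arrays, near the bottom of the range. Of 10 hepatocyte and endoderm markers none passed limma's test in either comparison with day 10 (0 also at an unadjusted p under 0.05), and Alb, the albumin gene, lay between 4.39 and 4.72. The other marker lists were also compared between day 30 and day 10, where 9.92% of all genes fell and 11.2% rose. Falls passed in 1 of 8 endothelial, 2 of 7 smooth muscle, 2 of 7 neural and 7 of 8 pluripotent markers. Rises passed in 1 of 7 smooth muscle and 1 of 8 macrophage and blood markers. The pluripotent markers had a median difference of -2.14, and their part in the lipid results was not tested. Adipoq, Pparg and Alb were named after their values were seen.

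Neighbouring genes of these pathways were read from lists of their own. Among 10 measured genes of SREBP cleavage and INSIG turnover, 1 fell and none rose at day 30 against day 10, where 9.92% of all genes fell and 11.2% rose. It was Rnf145, a ubiquitin ligase gene that responds to sterol (-0.62, adjusted p = 0.048), and its call was lost without any array but d10r1 (highest adjusted p = 0.15). Of 10 genes of the other isoprenoid branches, which supply dolichol, ubiquinone and protein prenylation, none passed in limma's test (3 at an unadjusted p under 0.05), with a median difference of -0.06. Of 13 genes of sterol efflux, storage and transport, 1 rose, a share below that of all genes (11.2%). It was Mylip, which encodes a ligase that marks the LDL receptor for breakdown, with log2 signals of 9.02, 8.97 and 8.83 at day 30, against 7.56, 8.01 and 8.32 at day 10 (0.97, adjusted p = 0.01).

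Of 21 further genes of lipid synthesis 4 rose and none fell (11.2% and 9.92% of all genes), with a median difference of 0.55. Agpat2, an acyltransferase of phosphatidic acid synthesis, had log2 signals of 8.54, 8.57 and 8.65 at day 30, against 7.64, 7.75 and 7.53 at day 10 (0.95, adjusted p = 0.0024). Lpin1, a phosphatidate phosphatase, rose by 1.14 (adjusted p = 0.01), and Fads3, a member of the fatty acid desaturase family, by 1.37 (adjusted p = 0.0031). The day 30 and day 10 arrays did not overlap in any of these genes. In 8 of the 21 genes the day 30 arrays lay wholly above day 10, against 17.4% of all genes. Thrsp, a lipogenic protein gene of liver and fat, had log2 signals of 7.67, 6.97 and 7.89 at day 30, against a range of 4.97 to 6.82 at day 10. It rose by 1.91 (adjusted p = 0.029), a call lost without d10r1, d10r3, d30r1 or d30r3 (highest adjusted p = 0.094).

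Other probe sets of the same genes were compared with those used. There were 38 unused probe sets for 20 members. All 20 that were brighter than the median gene had the same sign as the probe set used, in both comparisons with day 10. Of the 18 dimmer ones, 14 had the same sign at day 30 and 15 at day 20. The sizes differed more than the signs: for Hmgcs1 the day 30 difference was -0.94 in the probe set used and -0.58 in the next, and for Scd1, with probe sets of unlike sign, 0.05 and -0.76. The second probe set of Scap lay at 4.22 at day 30 and 4.43 at day 10 and differed by -0.21, against 0.16 in the one used.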

How the data were processed

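Biotin-labelled RNA of the 9 samples was hybridised to one-colour Affymetrix expression arrays, per the labels' protocols. The deposited values are the authors' log2 signals for each probe set. Neither the normalization nor the logarithm's base is stated in those sources. Base 2 was inferred from the range of 2.77 to 14.52, and scanner files were not used here, so detection could not be judged for single probes. The platform annotation gave 34958 of 45101 probe sets a single symbol, 932 more than 1 and 9211 no symbol. Only the first kind was named.

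Groups and replicate numbers came from the sample titles. R 4.3.3 with limma 3.58.1 (lmFit, then eBayes) fitted 1 mean per day to the brightest probe set of each gene over the 9 arrays, leaving 6 residual degrees of freedom to which 2.18 prior ones were added. Days were compared in pairs, later minus earlier, and the second interval's difference was compared with the first's. Tests were two-sided, with Benjamini-Hochberg adjustment over 18194 genes and a threshold of 0.05, and no gene was left out for low signal. The fit took 1 spread per gene for all days. It was tested on simulated data with the same setting, so that test does not cover the wider day 10 spread of the members. Named are all members, up to 4 genes of each further pathway list by adjusted p at day 30 against day 10, and up to 3 markers a list by day 30 signal. The members, lists and alternatives were chosen with earlier results of these data known. The titles state no pairing by replicate number, and the main fit used none. Correlations of same-numbered arrays' deviations from their day's mean ran from -0.149 to 0.434. They were not set beside those of differently numbered arrays, so they do not settle whether arrays were paired. Promoter windows were searched and figures drawn in Python 3.11.15 (pandas 2.3.3, matplotlib 3.10.9).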

Additional observations from a re-analysis of the deposited data

How the results depend on the processing

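The deposited values carry no detection call, so dim probe sets could not be set apart from background, and 3 arrays a day with a wide spread at day 10 limit the precision. Members passing between day 30 and day 10 numbered 16, from 7 to 20 with 1 array left out, and 10 when only those days were fitted. Between day 20 and day 10 they numbered 19, from 14 to 23 with 1 array left out, and between day 30 and day 20 they numbered 0, from 0 to 1 with 1 array left out, 2 with array weights and 2 when only those days were fitted. For the difference between intervals the count was 1, from 0 to 18 with 1 array left out, 2 with arrays centred on the median, 2 with the mean of a gene's probe sets, 7 without genes at or under the median signal, 0 with the second brightest probe set, 21 with array weights and 3 with trend and robust moderation. With array weights 24 members passed between day 30 and day 10 and 28 between day 20 and day 10. Insig2 was among them as higher at day 30 (0.78, adjusted p = 0.013) and at day 20 (0.92, adjusted p = 0.0066). Array weights gave medians of -1.40 in the sterol branch and -0.80 in the fatty acid branch, and leaving out 1 array gave -1.29 to -0.81 and -0.66 to -0.44. The replicate number was also fitted as a block, a pairing that the titles do not state. With it 14 members passed between day 30 and day 10 and 19 between day 20 and day 10. Between day 30 and day 20 the block fit gave 0, and 3 in the difference between intervals. At day 30 Srebf1 was gained (adjusted p = 0.038), while Fdps (0.063), Hsd17b7 (0.051) and Fasn (0.072) were lost. At day 20 Stard4 was gained (0.01) and Scap lost (0.063). Signs turned for Scap at day 30 with the mean of its probe sets (-0.025), with the second brightest (-0.21) and without d10r3 (-0.08), and its day 30 value ran from -0.08 to 0.38 with 1 array left out. They turned for Scd1 at day 30 with the mean (-0.36), the second brightest (-0.76), array weights (-0.86) and without d10r1 (-0.50), d10r3 (-0.05), d30r2 (-0.21) or d30r3 (-0.01), in a range of -0.50 to 0.70 with 1 array left out. They turned also for Insig1 at day 30 without d10r2 (0.26) or d30r1 (0.07), Scd2 at day 30 without d10r2 (-0.31 to 0.010 with 1 array left out), Fdps at day 20 with the second brightest probe set (0.053), and Srebf1 at day 20 with array weights (-0.27) or without d10r3 (-0.055 to 0.49 with 1 array left out). The cause of these shifts was not tested. Quantile normalization and centring on the median or the 75th percentile turned no member's sign.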
